A study of Caenorhabditis elegans with 10 samples.

Results

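The genes described here encode the folding machinery of the endoplasmic reticulum (ER): the Hsp70 chaperones hsp-3 and hsp-4, the Hsp90 chaperone enpl-1, the lectin chaperones crt-1 and cnx-1, the protein disulfide isomerases pdi-1, pdi-2, pdi-3 and pdi-6, and the thiol oxidase ero-1. They were chosen by gene symbol. Each was represented by 1 probe set, the set of short oligonucleotides that reports a transcript on the array, and where a gene had several the one with the highest mean over the 10 arrays was taken. All 10 were measured and passed the filter on low values, out of 12641 genes tested.

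Secreted and membrane proteins enter the ER unfolded. Chaperones of the Hsp70 and Hsp90 families bind their exposed hydrophobic stretches, calnexin and calreticulin hold glycoproteins through their sugars, disulfide isomerases form and rearrange disulfide bonds, and ERO-1 re-oxidises the isomerases. When unfolded proteins build up, the sensors IRE-1, PEK-1 and ATF-6 raise the transcription of this machinery, and in Caenorhabditis elegans hsp-4 is the gene most used as a reporter of that response.

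Caenorhabditis elegans mutants of the mitochondrial electron transport chain were compared with wild-type animals on 10 Affymetrix arrays of whole young adults, 1 array per strain or feeding. The missense mutants were gas-1(fc21) in complex I, mev-1(kn1) in complex II and isp-1(qm150) in complex III. Like their wild type, N2 Bristol, they were grown on OP50 plates and then in K12 liquid culture, and that wild type is called the K12 wild type here. The other mutants were N2 animals fed bacteria for RNA interference (RNAi) against 5 complex I genes, nduf-6 (F22D6.4), nuo-5 (Y45G12B.1), ndua-13 (C34B2.8), ndab-1 (Y56A3A.19) and ndub-7 (D2030.4), with 5 mM IPTG present throughout. Their labelled control was N2 grown on HT115 bacteria, whose label names neither IPTG nor an empty vector. All animals had 2 generations on plates before the liquid culture, adults were enriched on sucrose, and each array received RNA combined from 3 biological replicates. T07C4.7, which is mev-1's sequence name, also stands in the label of the isp-1 array.

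No strain had a replicate array. P-values in this report therefore set a difference against the spread between different mutants of the same kind, and each lone wild type was assumed to vary like the mutants. The targeted gene's own log2 value differed from the HT115 wild type by -0.95 on the nuo-5 RNAi array, -0.51 on the ndua-13 array, -0.25 on the nduf-6 array and -0.17 on the ndub-7 array. On the array labelled ndab-1 RNAi the ndab-1 value was 1.08 higher than in the wild type, against its label. The arrays labelled nduf-6 RNAi and ndub-7 RNAi stood apart from the others in their sperm markers, the msp genes, whose median difference from the wild type was -2.64 and 1.63. On the ndub-7 array the 113 cuticle collagen genes had a median difference of 0.97 and 13 moulting genes one of 1.02, while 14 oocyte and eggshell genes had a median difference of -0.81. These are whole-animal samples, so fewer cells of a type and less RNA per cell cannot be told apart.

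No ER folding gene passed the test between mutants and wild types, and hardly any gene on the arrays did. Across all 8 mutants, 0 of the 10 members passed limma's test at a Benjamini-Hochberg adjusted p of 0.05, where 2 of the 12641 genes did (0.0158% of all genes). At an unadjusted p of 0.05 it was also 0 of 10, against 6.9% of all genes. With shares this low, 0 of 10 does not set the members apart from other genes. The adjusted p-values of the members ran between 0.934 and 1. By sign alone, 6 members were higher and 4 lower in the mutants, with a median log2 difference of 0.08 beside 0.00 over all genes. Among the intervals of 95% confidence, the bounds reached furthest for hsp-3 on the low side, 0.659-fold of wild type, and for pdi-2 on the high side, 1.46-fold.

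The same held with each kind of mutant set against its own control. For the missense mutants 0 of 10 members passed (0.0316% of all genes) and 0 did at an unadjusted p of 0.05 (3.03% of all genes), with 4 higher, 6 lower and a median of -0.02. For the RNAi animals 0 of 10 passed (0.396% of all genes) and 0 at an unadjusted p of 0.05 (8.2%), with 7 higher, 3 lower and a median of 0.11. The difference between the RNAi and the missense response passed for 0 of 10 (0.0475% of all genes), and for 0 at an unadjusted p of 0.05 (4.21%), with 7 higher, 3 lower and a median of 0.20 beside -0.03 over all genes. That median was 0.08 without the ndub-7 and nduf-6 arrays. The intervals were wide enough that changes up to 1.92-fold higher or 0.497-fold of wild type lay inside at least 1 member's interval. A p that misses the threshold does not show that the levels were equal.

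**Figure D1:**
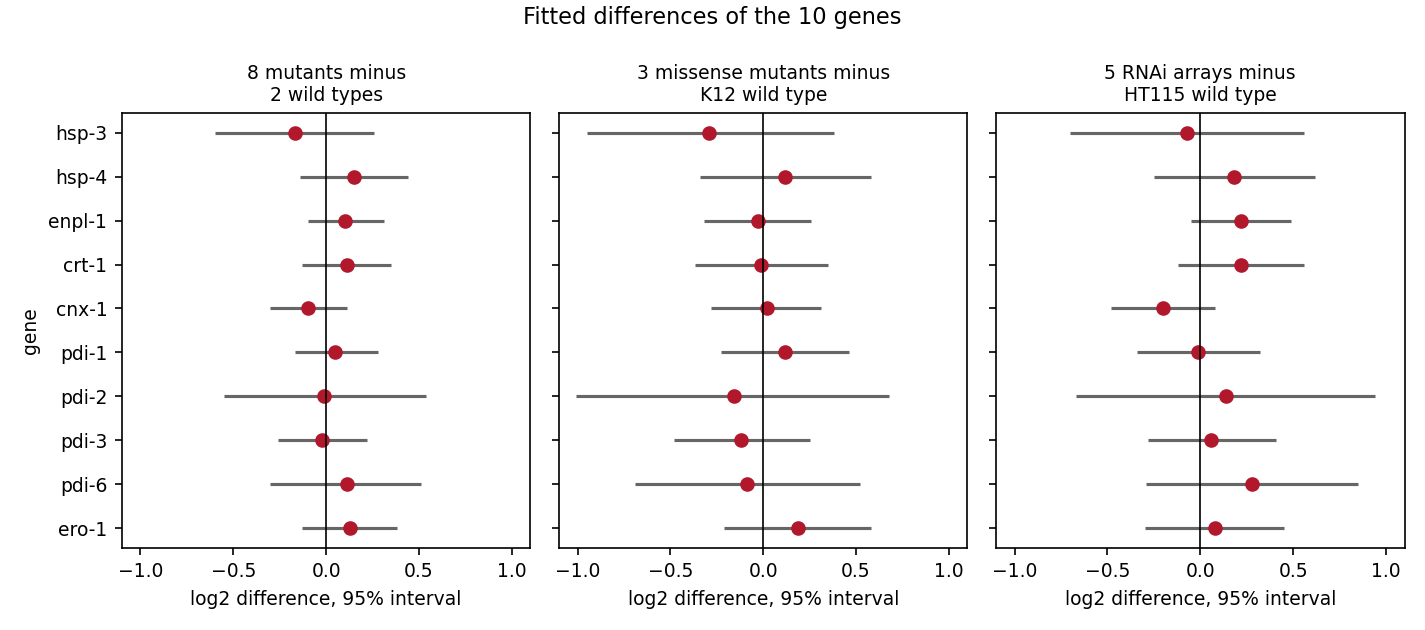
Fitted log2 differences from wild type of the 10 ER folding genes (vertical axis), for all 8 mutants together, the missense mutants and the RNAi animals from left to right. Points are limma estimates and bars their 95% confidence intervals. Every interval crosses 0, the widest are those of pdi-2 and hsp-3, and the RNAi estimates run from -0.20 (cnx-1) to 0.28 (pdi-6).

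The members varied little from array to array. Their median SD over the 10 arrays was 0.12 on the log2 scale, against 0.29 for the median gene, and 9 of 10 members had an SD below that of the median gene. For 7 of the 10 the highest and the lowest array differed by under 1.5-fold, and the exceptions were pdi-2 (2.4-fold), hsp-3 (1.8-fold) and pdi-6 (1.7-fold). All members were bright on these arrays, and this comparison was not matched for level.

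hsp-3 (C15H9.6) and hsp-4 (F43E2.8) encode the nematode's pair of BiP proteins, the ER Hsp70. The log2 value of hsp-4 was 11.66 for gas-1, 11.93 for mev-1 and 11.74 for isp-1, against 11.66 in the K12 wild type. In RNAi animals it was 11.84 for nduf-6, 12.01 for nuo-5, 11.52 for ndua-13, 11.71 for ndab-1 and 11.66 for ndub-7, against 11.57 in the HT115 wild type. The ndua-13 array alone lay below its wild type, and the nuo-5 array was the highest of all 10. The fitted difference was 0.12 ± 0.20 (SE) in missense mutants, 0.18 ± 0.19 in RNAi animals and 0.15 ± 0.13 in all mutants, with limma adjusted p-values of 1, 0.978 and 0.934. Without the mev-1 array the missense difference was 0.04. For the RNAi animals the interval ran between 0.840-fold and 1.53-fold of wild type, and for the missense mutants between 0.791-fold and 1.49-fold.

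hsp-3, the BiP gene known to be expressed at a high basal level, leaned the other way in most mutants. Its log2 value was 11.80 for gas-1, 12.09 for mev-1 and 11.84 for isp-1, which differed from the K12 wild type by -0.40, -0.11 and -0.36, so the 3 missense arrays all lay below their control. Among RNAi animals it was 12.28 for nduf-6, 11.80 for nuo-5, 12.03 for ndua-13, 12.21 for ndab-1 and 12.65 for ndub-7, against 12.26 in the HT115 wild type. The RNAi arrays lay on both sides of their control, with ndub-7 the highest of the 10 arrays and nuo-5 the lowest, about level with gas-1. The fitted differences of -0.29 ± 0.29 in missense mutants and -0.07 ± 0.27 in RNAi animals were within that spread (limma adjusted p 1 and 0.998). Without the nuo-5 array the RNAi difference was 0.03, and without the ndub-7 array it was -0.18.

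Within an array, the difference of hsp-4 from wild type exceeded that of hsp-3 in 7 of the 8 mutants. The gap in log2 units was 0.40 for gas-1, 0.38 for mev-1 and 0.44 for isp-1. It was 0.26 for nduf-6 RNAi, 0.90 for nuo-5, 0.19 for ndua-13, 0.19 for ndab-1 and -0.29 for ndub-7. The nuo-5 array held both the highest hsp-4 and the lowest hsp-3 of the series, and the ndub-7 array was the exception in sign. The gap was computed after the values of both genes were seen, and it has no test. All 8 gaps rest on the same 2 wild-type arrays and are not independent of each other. Probe sets ending in _s_at, a suffix for sets that match more than 1 transcript, reported 7 of the 10 members, hsp-3 and hsp-4 among them, so signal from related transcripts was not separated here.

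**Figure D2:**
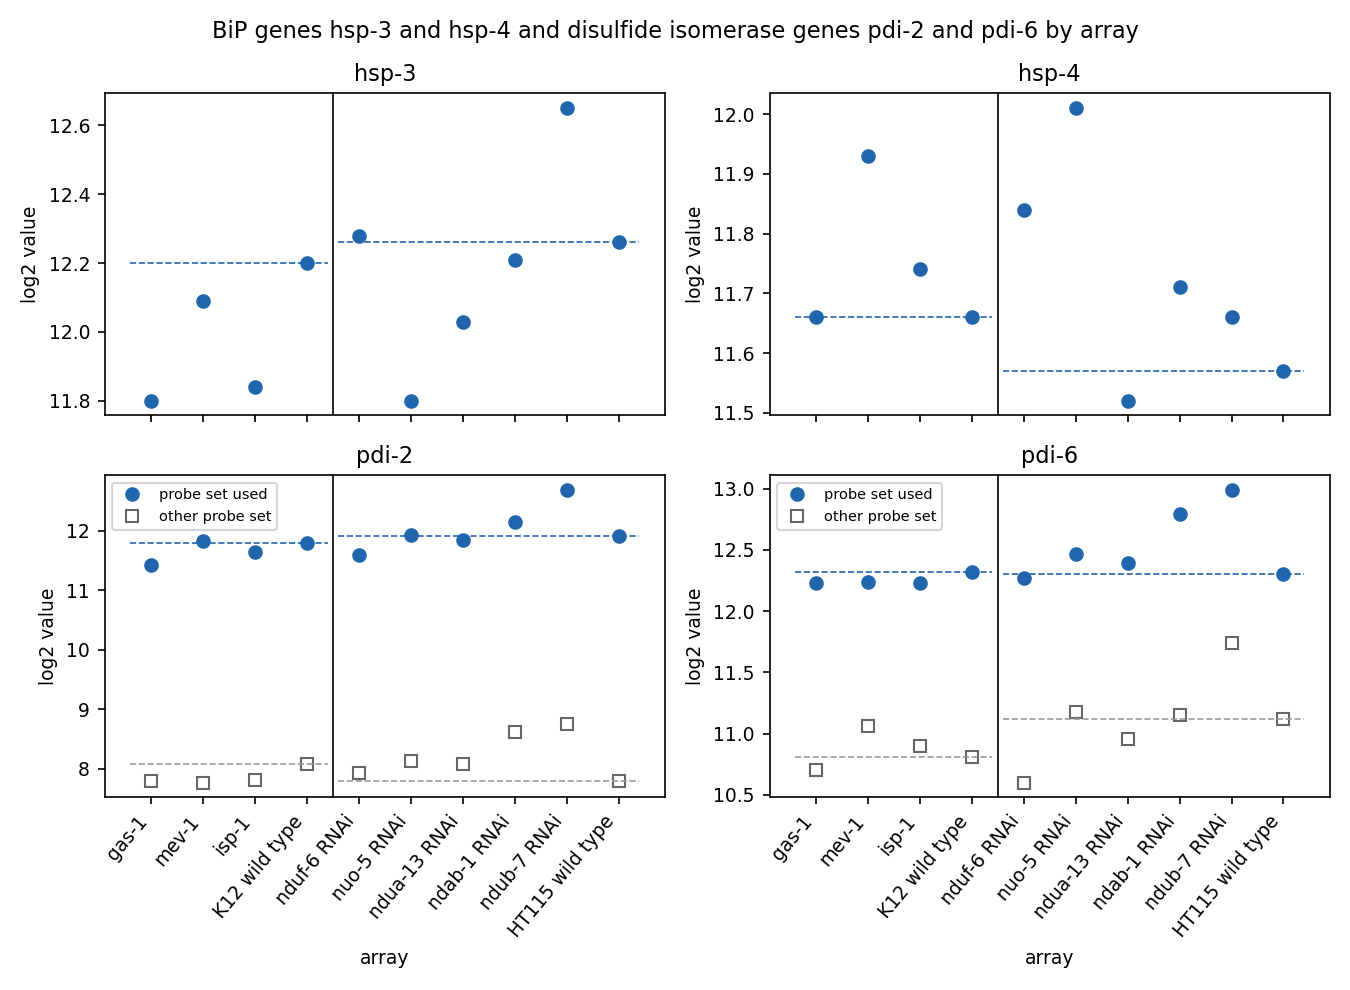
Normalised log2 values of 4 ER folding genes on each of the 10 arrays, with missense mutants beside the K12 wild type and RNAi animals beside the HT115 wild type. Filled points are single arrays of pooled RNA on the probe set used, open squares the second probe set of pdi-2 and pdi-6, and dashed lines the wild type of each culture, without error bars. hsp-4 is highest on the nuo-5 array at 12.01, while hsp-3, pdi-2 and pdi-6 are highest on the ndub-7 array at 12.65, 12.68 and 12.99.

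enpl-1 (T05E11.3) encodes endoplasmin, the ER member of the Hsp90 family. Its log2 value was 12.96 for gas-1, 13.12 for mev-1 and 13.05 for isp-1, against 13.07 in the K12 wild type, a spread on both sides of the control. Among the RNAi arrays it was 13.09 for nduf-6, 13.23 for nuo-5, 13.06 for ndua-13, 13.05 for ndab-1 and 13.13 for ndub-7, against 12.89 in the HT115 wild type. All 5 RNAi arrays lay above their control, by 0.16 to 0.34. Of the members' RNAi comparisons this one had the lowest p, with a difference of 0.22 ± 0.12 and an interval of -0.05 to 0.49 (limma p 0.101, adjusted p 0.708). A second, dimmer probe set of enpl-1 gave the same fitted difference, 0.22, but had the nduf-6 array below the control, at -0.10.

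The lectin chaperones lay apart from the HT115 wild type as well, in opposite directions. For crt-1 (Y38A10A.5), calreticulin, a soluble calcium-binding lectin of the ER lumen, the RNAi values were 14.32 for nduf-6, 14.08 for nuo-5, 14.33 for ndua-13, 14.17 for ndab-1 and 14.10 for ndub-7, against 13.98 in the HT115 wild type. For cnx-1 (ZK632.6), calnexin, its membrane-bound relative, they were 10.14, 10.22, 10.24, 10.26 and 10.23 in the same order, against 10.42 in the HT115 wild type. The fitted RNAi differences were 0.22 ± 0.15 for crt-1 and -0.20 ± 0.12 for cnx-1 (limma adjusted p 0.822 and 0.773).

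Missense mutants showed no such separation in either lectin. The crt-1 values were 14.31 for gas-1, 14.29 for mev-1 and 14.10 for isp-1, against 14.24 in the K12 wild type. Those of cnx-1 were 10.15, 10.27 and 10.16 in the same order, against 10.18 in the K12 wild type. In both genes the mutants lay on both sides of their control.

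For enpl-1, crt-1 and cnx-1 the HT115 wild-type array itself was at the edge of the series, the lowest of the 10 arrays for enpl-1 and crt-1 and the highest for cnx-1. The K12 wild type differed from it by 0.18 for enpl-1, 0.26 for crt-1 and -0.24 for cnx-1, about as much as the RNAi animals did. Over all 8 mutants the fitted differences were 0.10 for enpl-1, 0.11 for crt-1 and -0.10 for cnx-1. Without the HT115 wild type that fit has no control for the RNAi arrays and reduces to the missense comparison. It then gave -0.03, -0.01 and 0.02, which says nothing further about the RNAi animals. By the probe sets used, these were the 3 members whose RNAi arrays all lay on 1 side of their control, 3 of 10 where 33.5% of all genes did so. For the missense mutants it was 6 of 10 (hsp-3, hsp-4, pdi-1, pdi-3, pdi-6 and ero-1) where 51.0% of all genes did so. No member had all 8 mutants on the same side of their own wild types, as 11.5% of all genes had.

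**Figure D3:**
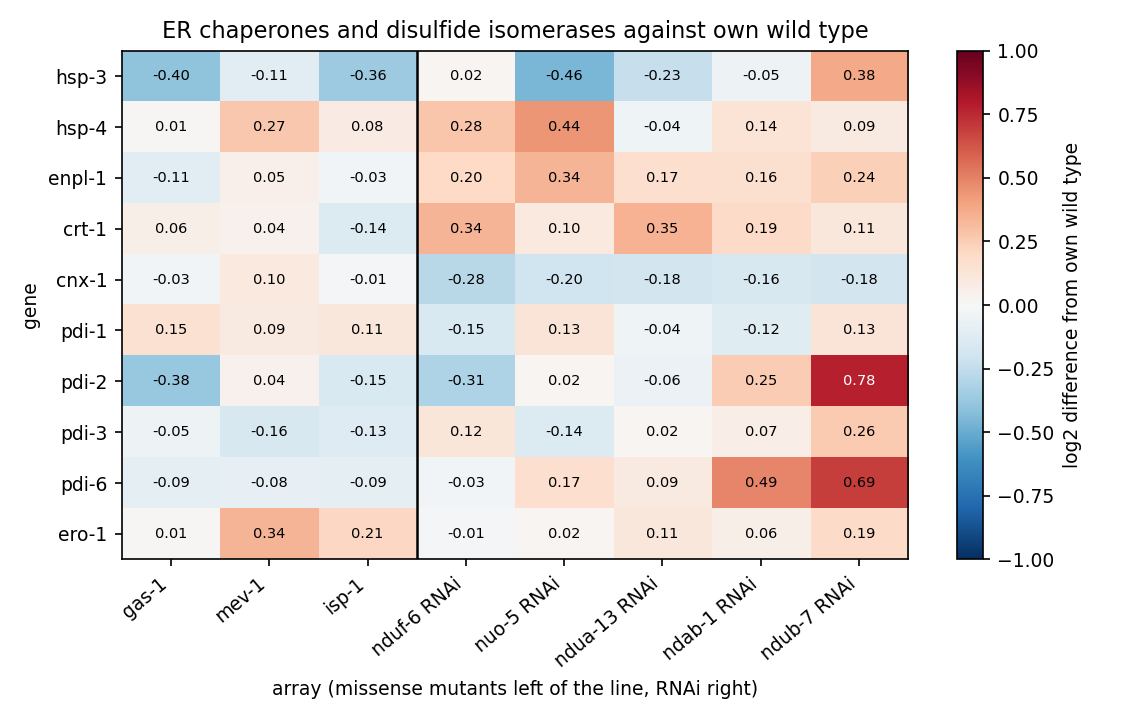
Difference in log2 value of each ER folding gene on each mutant array from the wild type of its own culture. Each cell is 1 array of pooled RNA minus 1 wild-type array, without a test. The largest cells are pdi-2 and pdi-6 on the ndub-7 array at 0.78 and 0.69, and cnx-1 is below the HT115 wild type in all 5 RNAi columns.

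Of the disulfide isomerases, pdi-2 and pdi-6 varied most and did so together. pdi-2 (C07A12.4) also serves as the beta subunit of collagen prolyl 4-hydroxylase, which modifies cuticle collagen in the ER. Its log2 value was 11.42 for gas-1, 11.83 for mev-1 and 11.64 for isp-1, against 11.79 in the K12 wild type. With RNAi it was 11.59 for nduf-6, 11.93 for nuo-5, 11.84 for ndua-13, 12.15 for ndab-1 and 12.68 for ndub-7, against 11.90 in the HT115 wild type. The gas-1 array was the lowest and the ndub-7 array the highest of the 10, and both kinds of mutant straddled their control. The fitted RNAi difference was 0.14 ± 0.35 with an interval of -0.67 to 0.94 (limma adjusted p 0.998). Without the ndub-7 array it was -0.02.

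pdi-6 (B0403.4), whose human counterpart is PDIA6, was nearly flat in missense mutants by the probe set used. Its log2 value was 12.23 for gas-1, 12.24 for mev-1 and 12.23 for isp-1, against 12.32 in the K12 wild type. Among RNAi animals it was 12.27 for nduf-6, 12.47 for nuo-5, 12.39 for ndua-13, 12.79 for ndab-1 and 12.99 for ndub-7, against 12.30 in the HT115 wild type. The ndab-1 and ndub-7 arrays stood out above the rest, while the nduf-6 array was level with its control. The fitted RNAi difference was 0.28 ± 0.25 (limma adjusted p 0.937), and 0.18 without the ndub-7 array.

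Over the 10 arrays the values of pdi-2 and pdi-6 correlated with Pearson's r of 0.92, the highest of the 45 pairs of members. They also had the highest r with the mean of the other 9 members, 0.88 and 0.80. For the remaining members that r ran from -0.36 for crt-1 to 0.61 for hsp-3. These correlations are descriptions over arrays that share their wild types and the same normalisation, and the ndub-7 array is the highest point of both genes. A second probe set of pdi-2, dimmer than the first, differed from wild type by -0.29 for gas-1, -0.30 for mev-1 and -0.26 for isp-1. For RNAi it gave 0.14 for nduf-6, 0.35 for nuo-5, 0.30 for ndua-13, 0.83 for ndab-1 and 0.96 for ndub-7, so all 5 RNAi arrays lay above the control by this set and only 3 did by the main one. The second probe set of pdi-6 was also highest for ndub-7, at 0.62, while ndab-1 stood at 0.03, nduf-6 at -0.52, nuo-5 at 0.06 and ndua-13 at -0.15. In missense mutants that set gave -0.11 for gas-1, 0.24 for mev-1 and 0.08 for isp-1. Its fitted RNAi difference was 0.01, in place of 0.28.

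The cuticle and moulting markers were highest where pdi-2 and pdi-6 were highest. The summed level of the 113 cuticle collagen genes, as log2, was 18.72 to 18.89 in missense mutants and 18.54 to 19.26 in RNAi animals, against 19.04 in the K12 wild type and 19.04 in the HT115 wild type. Summed over 13 moulting genes it was 12.18 to 12.77 in missense mutants and 12.45 to 13.85 in RNAi animals, against 12.75 in the K12 wild type and 12.83 in the HT115 wild type. In both lists the ndub-7 array was the highest of the 10. On it 84 of the collagen and 12 of the moulting genes were above the HT115 wild type. The collagen count did not single that array out. It was 86 on the nuo-5 array, where pdi-2 differed by 0.02 and pdi-6 by 0.17. It was 83 on the ndab-1 array, where they differed by 0.25 and 0.49. The summed level of 23 sperm genes was also highest on the ndub-7 array, at 17.79, and lowest on the nduf-6 array, at 13.61. It was 16.43 to 17.31 in missense mutants, against 16.80 in the K12 wild type and 16.22 in the HT115 wild type. Of the collagen genes 7 lay within 1 log2 unit of the filter level, of the moulting genes 1 did and of the sperm genes 0, and the log2 table holds no marker at 0. The part of stage or cuticle synthesis in the values of pdi-2 and pdi-6 was not tested.

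pdi-1 (C14B1.1) and pdi-3 (H06O01.1) varied within narrow bounds by the probe sets used. The log2 value of pdi-1 was 12.67 for gas-1, 12.61 for mev-1 and 12.63 for isp-1, against 12.52 in the K12 wild type. Under RNAi its value was 12.52 for nduf-6, 12.80 for nuo-5, 12.63 for ndua-13, 12.54 for ndab-1 and 12.79 for ndub-7, against 12.67 in the HT115 wild type. The missense arrays were thus all slightly above their control, while the RNAi arrays fell on both sides of theirs, with differences of 0.12 ± 0.15 and -0.01 ± 0.14 (limma adjusted p 1 and 0.999). A second probe set of pdi-1 ranged more widely, between 11.92 in gas-1 and 12.55 in the ndub-7 animals. By that set gas-1 lay below its control, at -0.07, with mev-1 at 0.19 and isp-1 at 0.20, and all 5 RNAi arrays lay above theirs, by 0.01 to 0.49, with a fitted RNAi difference of 0.16 (limma adjusted p 0.999).

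pdi-3, an isomerase that also has transglutaminase activity in vitro, had a log2 value of 13.39 for gas-1, 13.28 for mev-1 and 13.31 for isp-1, against 13.44 in the K12 wild type. After RNAi feeding it was 13.33 for nduf-6, 13.07 for nuo-5, 13.23 for ndua-13, 13.28 for ndab-1 and 13.47 for ndub-7, against 13.21 in the HT115 wild type. All missense arrays were below their control by 0.05 to 0.16, a gap smaller than the 0.23 between the 2 wild types. Fitted differences were -0.12 ± 0.16 and 0.06 ± 0.15 (limma adjusted p 1 and 0.996).

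cyn-9, a cyclophilin gene that neighbours pdi-1 in the RefSeq annotation and is known to be transcribed with it from the same operon, had a different profile. Against the HT115 wild type its log2 value differed by -0.27 for nduf-6, 0.09 for nuo-5, -0.60 for ndua-13, -0.73 for ndab-1 and -0.97 for ndub-7. On the last 3 arrays pdi-1 differed by -0.04, -0.12 and 0.13. In missense mutants cyn-9 differed from the K12 wild type by -0.03, 0.01 and 0.38 for gas-1, mev-1 and isp-1. The fitted RNAi difference of cyn-9 was -0.50 ± 0.38 (limma adjusted p 0.882).

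ero-1 (Y105E8B.8) encodes the flavoprotein oxidase that passes electrons from the isomerases to oxygen. Its log2 value was 9.22 for gas-1, 9.55 for mev-1 and 9.42 for isp-1, against 9.21 in the K12 wild type, which was the lowest array of the series. The RNAi values were 9.28 for nduf-6, 9.31 for nuo-5, 9.40 for ndua-13, 9.35 for ndab-1 and 9.47 for ndub-7, against 9.29 in the HT115 wild type. The mev-1 array was the highest of the 10, and 7 of the 8 mutants were above their control, gas-1 and nuo-5 by no more than 0.02. The fitted difference was 0.19 ± 0.17 in missense mutants and 0.08 ± 0.16 in RNAi animals (limma adjusted p 1 and 0.996). A second, dimmer probe set of ero-1 gave the same order in missense mutants, -0.05 for gas-1, 0.36 for mev-1 and 0.21 for isp-1, but lay at or below the control in RNAi animals, between -0.44 and -0.00.

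Array by array, the median member differed from its own wild type by -0.04 for gas-1, 0.05 for mev-1 and -0.06 for isp-1. For RNAi the median was 0.00 for nduf-6, 0.06 for nuo-5, -0.01 for ndua-13, 0.11 for ndab-1 and 0.21 for ndub-7. Over all genes the medians of the 8 arrays lay between -0.07 and 0.04, with the lowest on the ndub-7 array. There 9 of 10 members were above the wild type, as 42% of all genes were, and 2, pdi-2 and pdi-6, reached 1.5-fold, as 19.2% of all genes did. No member was 1.5-fold lower on that array, where 22.2% of all genes were. On each of the other 7 arrays 0 of 10 members reached 1.5-fold in either direction. Among missense mutants, the share of all genes that was at least 1.5-fold higher and the share that was at least 1.5-fold lower were 7.82% and 9.49% for gas-1, 8.99% and 8.73% for mev-1, and 6.46% and 7.28% for isp-1. In the RNAi group these shares were 8.59% and 10.5% for nduf-6, 9.91% and 10.3% for nuo-5, 11.4% and 12.7% for ndua-13, and 11.8% and 12.9% for ndab-1. Between the wild types 0 of 10 members differed by 1.5-fold, while 10.3% of all genes were that much higher and 10.7% that much lower in the K12 than in the HT115 wild type. By the probe sets used, hsp-4, enpl-1 and pdi-1 reached their highest values of the series in the nuo-5 animals. hsp-3, pdi-2, pdi-3 and pdi-6 did so in the ndub-7 animals. For pdi-1 the values on these arrays were 12.80 and 12.79. Its second probe set was highest on the ndub-7 array, at 12.55, and that of enpl-1 on the ndab-1 array, at 8.87.

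Genes that work beside the members were read from 11 lists of the secretory pathway and of other chaperones, which name 115 genes, of which 94 were tested. Of these 94, 0 passed in any of the 4 comparisons by limma with Benjamini-Hochberg adjustment. At an unadjusted p of 0.05 it was 4 for all mutants, 0 for the missense mutants, 4 for the RNAi animals and 1 for the difference between the responses, against 6.9%, 3.03%, 8.2% and 4.21% of all genes. The median differences were 0.05, 0.03, 0.06 and 0.04 in the same order.

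The sensors that govern the ER folding genes did not pass in any comparison. ire-1, a kinase and RNase that splices the xbp-1 mRNA, differed from wild type by 0.09 ± 0.12 over all 8 mutants, atf-6, a membrane-tethered transcription factor, by 0.15 ± 0.12, and pek-1, the kinase that slows translation, by -0.21 ± 0.26 (limma adjusted p 0.974, 0.924 and 0.972). xbp-1 itself differed by -0.03 ± 0.15 (adjusted p 0.996); it was picked out after its value was seen, and its splicing was not analysed here. For pek-1 the nuo-5 array was the lowest of the series at 7.89, against 8.58 in the HT115 wild type. atf-4, a transcription factor downstream of pek-1, was at 0.25 ± 0.27 in RNAi animals and -0.29 ± 0.29 in missense mutants (adjusted p 0.986 and 1). The list of 6 tested sensors and factors had 3 higher and 3 lower over all mutants, with a median of 0.00.

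Among cofactors of BiP, the tested list of 5 had a median of 0.03 over all mutants, with 3 higher and 2 lower and 0 past the test. T14G8.3 differed from the K12 wild type by 0.20 for gas-1, 0.00 for mev-1 and 0.21 for isp-1. In the RNAi group it was at 8.09 for nduf-6, 8.73 for nuo-5, 8.22 for ndua-13, 8.67 for ndab-1 and 9.48 for ndub-7, against 8.09 in the HT115 wild type. The ndub-7 array was the highest of the series, and the RNAi difference of 0.55 ± 0.45 did not pass (limma adjusted p 0.905).

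In the glycoprotein cycle that feeds calnexin and calreticulin, 8 genes were tested, with 6 higher, 2 lower and a median of 0.07 over all mutants. uggt-1, the glucosyltransferase that returns misfolded glycoproteins to the lectins, was above the HT115 wild type on all 5 RNAi arrays. The differences were 0.22 for nduf-6, 0.50 for nuo-5, 0.44 for ndua-13, 0.60 for ndab-1 and 1.13 for ndub-7, while the missense arrays differed from theirs by -0.04, 0.04 and 0.11 for gas-1, mev-1 and isp-1. The fitted RNAi difference was 0.58 ± 0.29 and the difference between the responses 0.54 ± 0.43 (limma adjusted p 0.678 and 1). mogs-1, the glucosidase that trims the first glucose, was below the HT115 wild type on all 5 RNAi arrays, with a difference of -0.39 ± 0.16 (adjusted p 0.580). The K12 wild type differed from the HT115 wild type by 0.28 for uggt-1 and -0.34 for mogs-1.

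Of 4 tested collagen hydroxylases, which include the partners of PDI-2, 2 were higher and 2 lower over all mutants, with a median of -0.04 and 0 past the test. phy-3, among those counted as higher, had values between 3.00 and 3.67, near the filter level of 2.60. dpy-18, an alpha subunit of prolyl 4-hydroxylase, was at 8.89 for gas-1, 8.95 for mev-1 and 9.10 for isp-1, against 9.22 in the K12 wild type. In RNAi animals it was at 8.95 for nduf-6, 8.90 for nuo-5, 9.48 for ndua-13, 9.36 for ndab-1 and 10.58 for ndub-7, against 8.93 in the HT115 wild type. phy-2, the other such subunit, was 1.27 above the HT115 wild type on the ndub-7 array and -0.86 from it on the nduf-6 array. Both were highest on the ndub-7 array, where pdi-2 was highest too.

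let-268, the procollagen lysyl hydroxylase, ran the other way and was below its own wild type on all 8 mutant arrays. Its difference was -0.30, -0.54 and -0.14 in gas-1, mev-1 and isp-1, and between -1.25 and -0.37 in RNAi animals. The fitted difference was -0.59 ± 0.22 over all mutants (limma p 0.0256, adjusted p 0.634) and -0.84 ± 0.30 in RNAi animals (adjusted p 0.484). Neither passed the test over all genes. The K12 wild type itself differed from the HT115 wild type by -0.83, about as much as the RNAi animals did. Without the HT115 wild type the fit over all mutants reduces to the missense comparison, at -0.32. Without the K12 wild type it reduces to the RNAi comparison, at -0.84.

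Of 6 other thioredoxin-fold proteins of the secretory pathway, 4 were higher and 2 lower over all mutants, with a median of 0.17 and 0 past the test. txdc-12.2, a thioredoxin-domain protein, differed from the HT115 wild type by -0.61 for nduf-6, 0.94 for nuo-5, 0.68 for ndua-13, 0.95 for ndab-1 and 1.36 for ndub-7, a spread that left the RNAi difference at 0.66 ± 0.62 (limma adjusted p 0.956). C14B9.2, an isomerase with thioredoxin domains, was at 11.27 on the ndub-7 array, against 10.92 in the HT115 wild type. Y49E10.4 was above its own wild type on all 8 arrays, by 0.01 to 0.76, with a difference of 0.29 ± 0.18 over all mutants (adjusted p 0.831).

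Protein import, calcium handling, degradation and export gave 0 genes past the test. The median over all mutants was 0.03 for 15 genes of translocation and signal peptide removal, 0.06 for 4 calcium channel and pump genes, -0.03 for 13 degradation genes and 0.04 for 20 genes of transport between ER and Golgi. For 8 secreted prolyl isomerases, which turn proline bonds during folding, it was 0.03. spcs-1, a subunit of the signal peptidase complex, was below the HT115 wild type on all 5 RNAi arrays and above the K12 wild type in all 3 missense mutants. The K12 wild type differed from the HT115 wild type by -0.63. The difference between the responses was -0.65 ± 0.24 (limma p 0.0264, adjusted p 1). sca-1, the ER calcium pump, differed by 0.32 ± 0.44 in RNAi animals and -0.26 ± 0.46 in missense mutants (adjusted p 0.996 and 1). der-2, a Derlin of ER-associated degradation, was below its own wild type on all 8 arrays, at -0.25 ± 0.11 (adjusted p 0.715), but another probe set of der-2 gave 0.01. tmed-3, a cargo receptor of ER-to-Golgi vesicles, was above its own wild type on all 8, at 0.39 ± 0.14 (adjusted p 0.623). Of all genes, 11.5% had all 8 arrays on 1 side of their own wild types.

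For comparison, 5 chaperones of the cytosol and mitochondria were all higher by sign over the 8 mutants, with a median of 0.46 and 0 past the test, where 50.5% of all genes were higher. The K12 wild type was itself above the HT115 wild type for all 5, with a median of 0.44. hsp-6, the mitochondrial Hsp70 and a reporter of the mitochondrial unfolded protein response, was at 11.21 for gas-1, 10.52 for mev-1 and 11.30 for isp-1, against 10.25 in the K12 wild type. Among the RNAi arrays it was at 10.88 for nduf-6, 10.71 for nuo-5, 11.19 for ndua-13, 10.60 for ndab-1 and 11.03 for ndub-7, against 10.01 in the HT115 wild type. Every mutant array lay above its control. The difference over all mutants was 0.82 ± 0.22 (limma p 0.00413), and it did not pass after adjustment (adjusted p 0.498).

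On the ndub-7 array the related lists differed in their medians. There 28 of the 94 genes were at least 1.5-fold higher than in the HT115 wild type (29.8%, against 19.2% of all genes) and 2 were that much lower (2.13%, against 22.2% of all genes). The 28 include hsp-60, hsp-6 and hsp-110, which belong to the cytosol and mitochondria. The median was 0.93 for that list of 5 chaperones, 0.82 for the collagen hydroxylases, 0.54 for the ER calcium channels and pump, 0.50 for other thioredoxin-fold proteins, 0.48 for translocation and 0.48 for transport between ER and Golgi. It was 0.24 for N-glycosylation, 0.22 for secreted prolyl isomerases, 0.18 for BiP cofactors, -0.13 for ER-associated degradation and -0.18 for the stress sensors and factors. These are values of 1 array against 1 array, without a test, on the array where collagen, moulting and sperm markers were also furthest above the control, and the part of those tissues or stages was not tested.

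**Figure D4:**
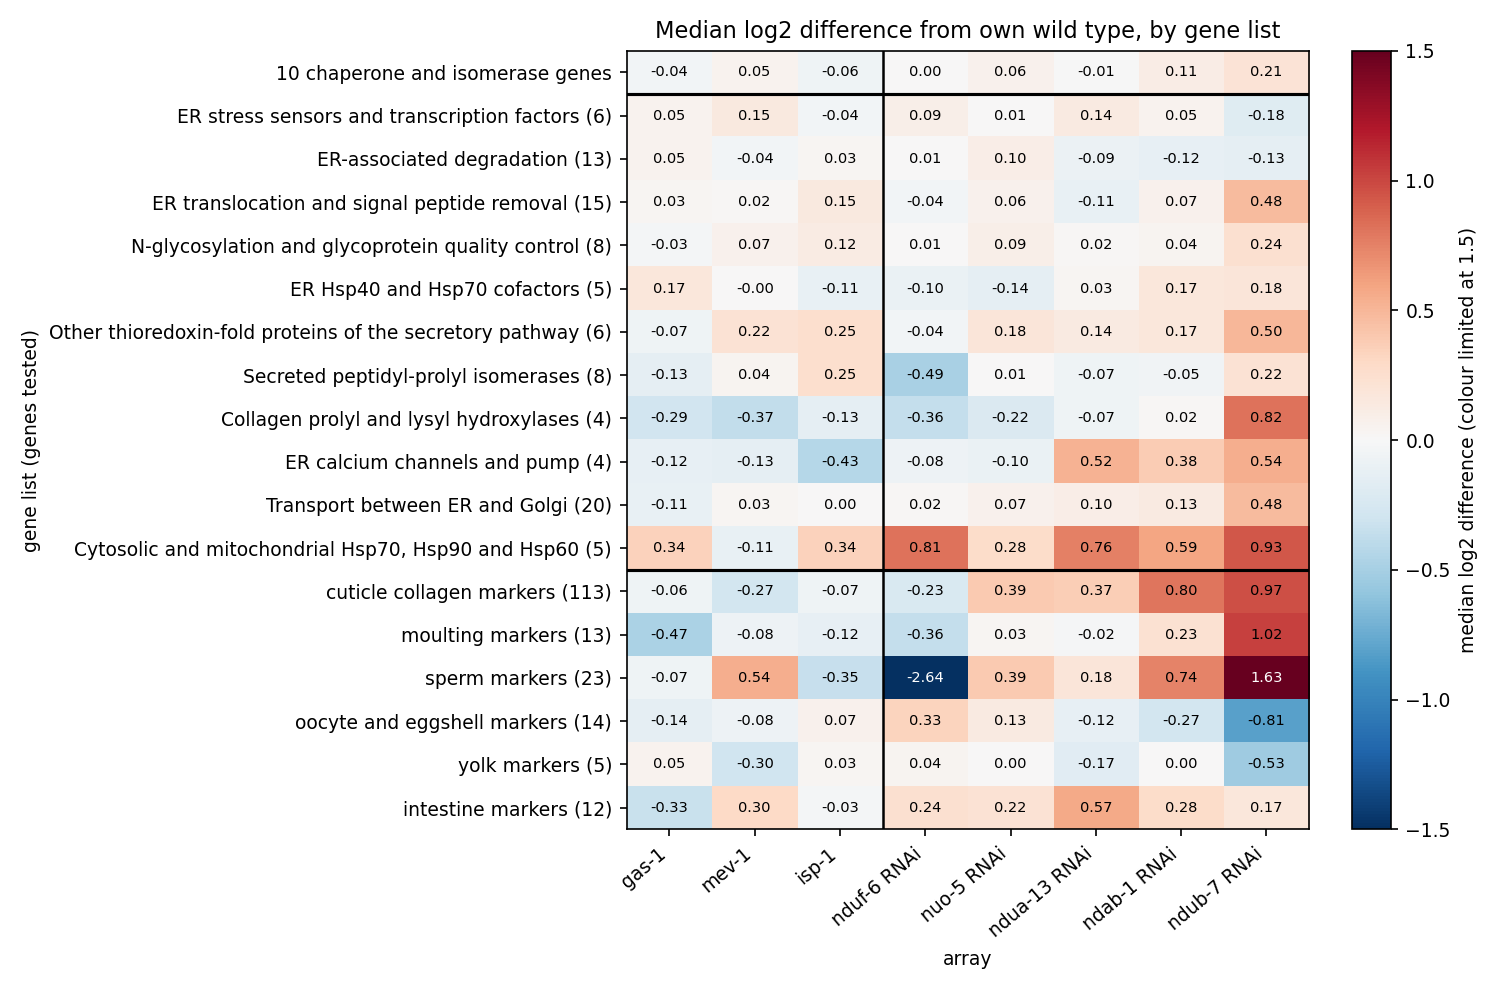
Median log2 difference from the wild type of the same culture for the ER folding genes, 11 related gene lists and some of the marker lists, on each of the 8 mutant arrays. The markers shown are those of cuticle collagen, moulting, sperm, oocyte and eggshell, yolk and intestine. Cells are medians over the tested genes of a list, without a test. The ER folding genes stay between -0.06 and 0.21, whereas cuticle collagen reaches 0.97, moulting 1.02 and sperm 1.63 on the ndub-7 array.

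The genes whose profile over the 10 arrays was most like the mean profile of the members were vha-12, T27A10.6, ifd-1, dsc-4 and ZC513.2, with Pearson's r of 0.96, 0.96, 0.96, 0.95 and 0.95. vha-12 encodes a subunit of the vacuolar proton pump, ifd-1 an intermediate filament protein and dsc-4 a microsomal triglyceride transfer protein. All had their highest value on the ndub-7 array, 0.89 to 1.37 above the HT115 wild type, and a value below the K12 wild type in gas-1 and isp-1. The mean profile itself, with each member centred on its own mean, was 0.22 on the ndub-7 array and between -0.11 and 0.06 on the other 9. Members were not scaled, so those that varied most, pdi-2, hsp-3 and pdi-6, weighed most in it. It is not a profile that all members shared: r with the mean of the others was -0.36 for crt-1 and -0.12 for hsp-4. ZC513.2 had values near the filter level on most arrays.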

How the data were processed

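Whole-animal RNA, pooled from 3 biological replicates per strain, was measured on 10 arrays. The values deposited by the authors run between 1.43 and 16.01 and were taken to be log2 on that ground; their summarisation and normalisation by the authors are not given in the sources at hand. Because the deposited array medians ranged over 0.13, more than 0.1, values were quantile normalised. After 77 control probe sets were removed, 20766 probe sets had 1 gene symbol, 887 had several and 895 none. Probe sets with a mean under the 25th percentile, 2.60, were dropped, and the probe set with the highest mean stood for each gene. Symbols came from the platform annotation, and 20701 probe sets matched the RefSeq table of WBcel235, used for names and neighbours only.

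Differences were tested two-sided with limma 3.58.1 (lmFit, eBayes with trend, R 4.3.3), adjusted by Benjamini-Hochberg over 12641 genes. All 10 arrays entered each fit: 1 with terms for culture and mutant, and 1 with 4 groups. Precision is limited by the number of arrays. The fits were run on simulated data with the same spread on every array, to check that mean estimates came close to the changes put in. Such data cannot show whether a lone wild type varies like the mutants. The members and the lists were chosen with earlier results of these data known. Besides the members, the text names genes with the smallest p-values in each related list, up to 3 per comparison, the 5 genes most correlated with the members' mean, and the targeted genes. Another normalisation, filter, probe set choice, or variance model, and leaving out arrays, were tried as alternatives.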

Additional observations from a re-analysis of the deposited data

Results flagged for a closer look

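Among the genes named beside the ER folding genes, sca-1, the ER calcium pump, had a log2 value of 11.47 on the nuo-5 RNAi array, far below the other 4 RNAi arrays, which lay between 12.41 and 12.79, against 12.04 in the HT115 wild type. Dixon's test at 95% picks such a sample in about 1 in 20 groups by chance. It was run on the 5 RNAi arrays of each member and of the related genes examined. For sca-1 the gap was a share of 0.71 of the range, at the critical value of 0.71. No RNAi array stood apart in this way for any of the 10 members, and the missense and wild-type arrays were not examined so.

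For spcs-1, a signal peptidase subunit, all 5 RNAi arrays lay below their wild type and all 3 missense arrays above theirs, with a difference between the responses of -0.65 ± 0.24 (limma p 0.0264, adjusted p 1). For atf-4, a transcription factor of the stress response, all 5 RNAi arrays lay above their wild type and all 3 missense arrays below theirs, with a difference of 0.54 ± 0.39 (limma p 0.208, adjusted p 1). Neither difference passed the test over all genes. Both genes were picked from the members and the named related genes because their groups lay on opposite sides. Of all genes, 33.5% had the RNAi arrays all on 1 side and 51.0% the missense arrays. The share with both, on opposite sides, was not computed. The K12 wild type itself differed from the HT115 wild type by -0.63 for spcs-1 and 0.44 for atf-4.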

How the results depend on the processing

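Over 19 alternatives the 10 members gave 700 fitted values, of which 0 passed the threshold, with a lowest adjusted p of 0.537. Signs were less stable, with 39 sign changes in 20 of the 40 member results, all of differences that did not pass. Over all mutants these were pdi-2 at 0.02 and pdi-3 at 0.02 with median-centred values, pdi-2 at 0.06 with the mean of probe sets, and pdi-2 at 0.14 and ero-1 at -0.03 by their other probe set. For the missense mutants, cnx-1 was -0.01 and crt-1 0.03 as deposited, crt-1 was 0.08 median-centred, and the other probe sets gave 0.00 for enpl-1 and 0.07 for pdi-6. For RNAi, pdi-1 was 0.01 as deposited, 0.01 median-centred, 0.07 by the mean and 0.16 by its other probe set, ero-1 was -0.06 by the mean and -0.20 by its other probe set, and pdi-3 was -0.02 without the ndub-7 and nduf-6 arrays, an alternative chosen after seeing the data. For the difference between responses, the other probe sets gave -0.06 for pdi-6 and 0.05 for pdi-1. The alternatives were also run for 21 fitted values of related genes given in the text, without the atf-4 difference between responses. Their 380 alternative values included 0 past the threshold, with a lowest adjusted p of 0.147. Their sign changes were -0.10 for atf-6, 0.01 for pek-1, 0.01 for der-2 and -0.05 for sca-1 in RNAi animals, each by another probe set, and xbp-1, which ran between -0.07 and 0.02 with each array left out.

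Leaving out each array in turn, values over all mutants ran between -0.01 and 0.12 for pdi-1, -0.16 and 0.14 for pdi-2, -0.12 and 0.06 for pdi-3, -0.20 and 0.02 for cnx-1, -0.01 and 0.22 for crt-1, -0.03 and 0.22 for enpl-1, and -0.09 and 0.28 for pdi-6. For the missense mutants they ran between -0.07 and 0.01 for enpl-1, -0.02 and 0.04 for cnx-1, -0.05 and 0.05 for crt-1, and 0.04 and 0.18 for hsp-4. For RNAi they ran between -0.05 and 0.03 for pdi-1, -0.18 and 0.03 for hsp-3, and -0.02 and 0.25 for pdi-2. For hsp-4 the difference between responses ran between -0.00 and 0.14. The members' median ran between -0.02 and 0.11 over all mutants, -0.05 and 0.00 for missense, 0.03 and 0.13 for RNAi, and 0.12 and 0.23 for the difference between responses, where it was 0.08 without the ndub-7 and nduf-6 arrays.

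Counts of all genes past the threshold moved more. Here too, the fit over all mutants without the K12 wild type is the RNAi comparison. Leaving out 1 array gave 0 to 48 over all mutants, 48 being without the K12 wild type, 1 to 10 for missense, 34 to 69 for RNAi and 4 to 10 for the difference. Over all mutants the count was 4 as deposited, 0 median-centred, 12 with no filter, 0 with the 50th percentile filter, 0 with the mean of probe sets, 0 without trend and 1 without the ndub-7 and nduf-6 arrays. For missense it was 2 median-centred, 98 with no filter and 1 with the stricter filter, and for RNAi 304 with no filter, 0 with the stricter filter and 91 without those arrays. For the difference it was 251 with no filter, 1 with the stricter filter, 3 without trend and 14 without those arrays. The median member of the isp-1 array was -0.13 as deposited, and that of the nuo-5 array 0.16 median-centred. Causes were not tested. No paired analysis was possible because the replicate numbers name different mutants and each wild type is 1 array. The number of arrays, with 1 wild type per culture, limits what differences could be detected.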
